A study of Homo sapiens with 60 samples.

Results

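The genes described here encode the NADPH oxidases of the colonic epithelium: NOX1 with its partners NOXO1, NOXA1 and CYBA, and the dual oxidases DUOX1 and DUOX2 with their maturation factors DUOXA1 and DUOXA2. These 8 genes were picked by name and matched by identifier among the 60675 genes of the deposited count table. They were followed in HT29, an established human colorectal adenocarcinoma line, after 24 h with a hot-water extract of medicinal herbs. The extracts came from a pair of single herbs, Menthae Herba and Saposhnikoviae Radix, and from formulas of several herbs: Okbyeongpung-san, Soyo-san, Guibi-tang, Saengmaek-san and Soshiho-tang. Doses were 20 (low), 100 (medium) and 500 µg/mL (high) for all of them. Every dose of 6 extracts was sequenced in 3 libraries, and every dose of Soshiho-tang in a single one. The 3 vehicle libraries came from HT29 cells given DMSO, labelled 0.1% in the sample characteristics and 2% in the design text. The sample characteristics of the extract libraries name the water extract and its dose but no DMSO. The part of a solvent difference in the comparisons with vehicle was not tested. Soyo-san contains Menthae Herba and Okbyeongpung-san contains Saposhnikoviae Radix as one of their herbs.

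NADPH oxidases carry electrons from NADPH across a membrane to oxygen. NOX1 makes superoxide and works in a complex with CYBA (p22phox), which holds it in the membrane, NOXO1, which organizes the complex, and NOXA1, which activates it together with the GTPase Rac. DUOX1 and DUOX2 release hydrogen peroxide, and each needs its own maturation factor, DUOXA1 or DUOXA2, to leave the endoplasmic reticulum. NOX1 and DUOX2 are known for their place in the colonic epithelium, where they act in mucosal defence and redox signalling.

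A library held 19495005 to 41934333 counts (median 29181790), and mitochondrially encoded genes took 9.74% to 13.9% of them. That share was 11.1% to 12.1% in Menthae Herba high-dose libraries and 12.8% to 13.5% in vehicle libraries, and 55 of the 57 extract libraries lay below the vehicle range. The part of this shift in the comparisons with vehicle was not tested. A first principal component divided the libraries at 1 point of their numbering into 31 earlier-numbered and 29 later-numbered ones. The single-herb and vehicle libraries are all earlier-numbered, and those of Soyo-san, Okbyeongpung-san and Soshiho-tang are all later-numbered. Saengmaek-san and Guibi-tang fall in both parts. The extract and the part of the numbering therefore cannot be told apart when Soyo-san or Okbyeongpung-san is set against vehicle, except through a fit with an order term that rests on Saengmaek-san and Guibi-tang. HT29's epithelial genes were present (all 10 markers listed had a median of at least 1 CPM, a unit of counts scaled to library size). CD3E of T cells was at 0 in 50 of 60 libraries, KDR of endothelium in 59 and PDGFRA of fibroblasts in 58. Other markers of these lists were counted in every library. Their medians were 1.15 CPM for PECAM1 and 0.267 CPM for CLDN5 (endothelium), and 1.4 CPM for COL1A1 and 0.741 CPM for LUM (fibroblasts). For the immune list they were 2.965 CPM for CD14 and 1.97 CPM for ITGAM. Summed markers in Menthae Herba high-dose and vehicle libraries covered 11930 to 12650 against 11510 to 12170 CPM for epithelium, 4.69 to 5.24 against 4.52 to 5.02 CPM for immune cells, 2.16 to 2.65 against 2.88 to 3.29 CPM for fibroblasts and 1.31 to 1.94 against 1.24 to 1.62 CPM for endothelium. KRT8 and KRT18 carry most of the epithelial sum. Of the 10 epithelial markers 4 fell under Menthae Herba at the high dose against vehicle, with log2 changes of -0.23 for VIL1, -0.18 for CDH1, -0.17 for LGALS4 and -0.40 for CDX2, and KRT20 rose by 0.19 (adjusted p of 0.037 or less, edgeR), where 8.57% of all genes were called. The immune list had only 2 tested genes, and they went opposite ways. ITGAM, a leukocyte integrin, rose to 2.37 ± 0.28 CPM under Menthae Herba at the high dose, against 1.65 ± 0.11 CPM in vehicle (SD, n = 3 each; adjusted p = 0.019, edgeR). CD14, a monocyte receptor, averaged 2.28 ± 0.26 CPM under Menthae Herba and 2.79 ± 0.27 CPM in vehicle (SD, n = 3 each; adjusted p = 0.19, edgeR). The part of these shifts in the results was not tested, and fewer cells of a kind and less RNA per cell cannot be told apart in such bulk libraries.

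The promoters of NOX1, which fell most clearly, and of DUOX2, which varied most in relative terms among the 6 tested members, are shown. NOX1 lies at chrX:100843324-100874345 on the minus strand of GRCh38 (GENCODE 29). Its RefSeq promoter window (GRCh38.p14, chrX:100874310-100874609, minus strand, 250 bases before to 50 after the start) is shown because GATA factors are known to act on NOX1, with matches of GATAA on either strand in capitals.
NOX1: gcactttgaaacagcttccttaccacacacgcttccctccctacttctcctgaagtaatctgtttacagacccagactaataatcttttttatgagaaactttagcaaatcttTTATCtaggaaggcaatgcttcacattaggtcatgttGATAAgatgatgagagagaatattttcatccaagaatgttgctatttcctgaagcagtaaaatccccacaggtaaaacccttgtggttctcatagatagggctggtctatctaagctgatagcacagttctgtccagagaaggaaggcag
DUOX2 lies at chr15:45092650-45114344 on the minus strand and DUOXA2 at chr15:45114321-45118421 on the plus strand, so that their 5′ ends overlap by 24 bases and the promoter windows share 253 bases. The DUOX2 window (chr15:45114123-45114422, minus strand) is shown because it serves both genes, with the match of TATAAA, read on the opposite strand, in capitals.
DUOX2: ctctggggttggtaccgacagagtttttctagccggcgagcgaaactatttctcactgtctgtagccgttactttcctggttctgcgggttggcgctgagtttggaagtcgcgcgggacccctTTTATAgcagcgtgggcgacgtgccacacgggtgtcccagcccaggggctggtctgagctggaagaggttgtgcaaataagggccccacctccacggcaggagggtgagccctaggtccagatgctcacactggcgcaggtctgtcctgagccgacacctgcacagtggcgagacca
Promoter windows were found for all 8 genes and searched on both strands for 7 motifs. The motif of the GATA factors was spelled GATAA, that of the intestinal CDX factors TTTATNG, and that of the STAT factors TTCNNNGAA. For the AP-1 factors it was TGANTCA, for the core of the xenobiotic response element GCGTG, for the core of the antioxidant response element TGACNNNGC, and for the TATA box TATAAA. Positions count back from the base before the start (-1) and give the leftmost base of a match. NOX1 held GATAA at -137 and again at -100, a motif found at least once in 22.7% of the 35116 windows, and 1 GCGTG, found in 36.5%. In the DUOX2 window 1 match each of TATAAA (11.5% of windows), TTTATNG (9.73%) and GCGTG was found, of which the TATAAA and TTTATNG matches overlap. Counted from DUOXA2's start, the same TATAAA begins at -32. These matches are descriptions of the letters.

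The genes differed widely in level, compared here as CPM per kilobase of exon over the 57 libraries of the replicated groups. CYBA, the shared membrane partner, was highest at 60.9 ± 2.87 CPM per kilobase (SD over 57 libraries). NOXO1 followed at 6.51 ± 0.95 and NOX1 at 5.97 ± 0.83 CPM per kilobase, and the ranges of these 2 genes overlapped. NOXA1 lay at 0.406 ± 0.11 and DUOX1 at 0.217 ± 0.032 CPM per kilobase. DUOXA1 (0.0504 ± 0.023), DUOX2 (0.0182 ± 0.012) and DUOXA2 (0.0079 ± 0.014 CPM per kilobase) were lower still, and DUOXA2 was at 0 in 36 of the 57 libraries. Levels of genes this low rest on few reads: a library held 1 to 18 counts of DUOX2, 0 to 14 of DUOXA1 and 0 to 5 of DUOXA2, against 274 to 667 of NOX1.

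**Figure D1:**
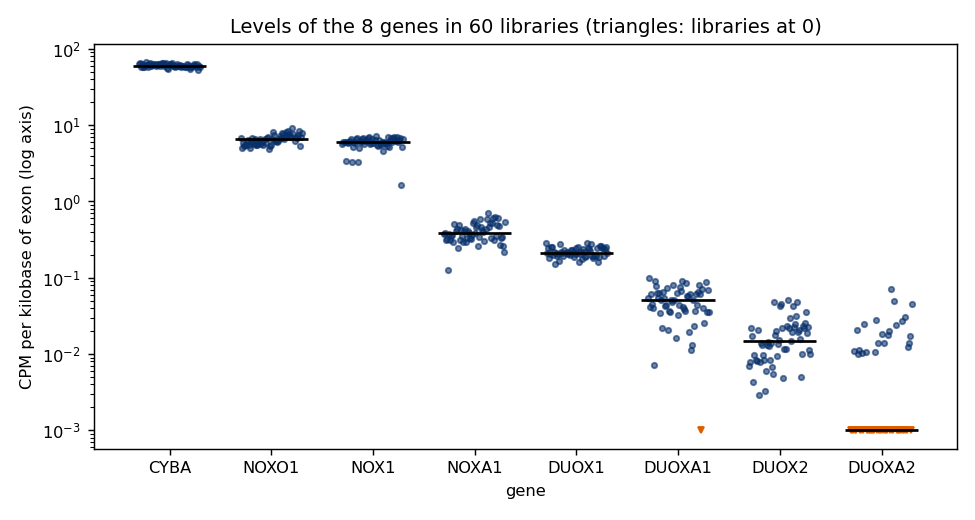
CPM per kilobase of exon (log axis) of the 8 genes in all 60 libraries (1 point each, moved sideways only to part them), with the median as a line and libraries at 0 as triangles at the foot. CYBA lies highest, NOXO1 and NOX1 share one level, and the 4 NOX1 points well under the rest are the 3 Menthae Herba high-dose libraries and the Soshiho-tang high-dose library.

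A filter on low counts kept 17049 genes for testing and 6 of the 8 members. DUOXA1 and DUOXA2 fell below it. DUOX2 stayed only through 7 libraries above the filter's cutoff of 0.33 CPM, 4 of Guibi-tang, 2 of Okbyeongpung-san and 1 of Soyo-san. Only libraries of these extracts, where it was high, carried it past the filter. Its p-values in comparisons with those extracts and in the joint test are therefore given but not read as results. A gene is said to have risen or fallen where its adjusted p in edgeR's quasi-likelihood test (Benjamini-Hochberg over all 17049 genes) was under 0.05.

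In a joint test of the 19 groups, NOX1 (adjusted p = 5.1e-11) and NOXO1 (4.1e-06) passed, beside 24.6% of all genes tested. DUOX2, whose p-value in this test is not read as a result, had 6.7e-04. CYBA (0.62), DUOX1 (0.4) and NOXA1 (0.37) did not. Over the 18 groups other than Menthae Herba at the high dose the adjusted p was 0.0045 for NOX1, 2.5e-05 for NOXO1 and 0.0014 for DUOX2, and 20.3% of all genes passed. With the order term NOXO1 no longer passed the test of the 19 groups (adjusted p = 0.074).

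NOX1, the catalytic subunit, fell in 1 of the 18 comparisons with vehicle, under Menthae Herba at the high dose. The 3 Menthae Herba high-dose libraries had 8.69, 8.26 and 8.35 CPM, against 14.4, 15.1 and 15.1 CPM in the vehicle libraries. The groups were far apart, and these 3 libraries lay below all others of the replicated groups, of which the lowest had 11.7 CPM. The log2 change was -0.82 ± 0.08 (SE), a ratio of 0.567 (adjusted p = 2.3e-10, edgeR), in a comparison where 8.57% of all genes were called. In the earlier-numbered libraries alone, an alternative chosen after the data had been seen, it was also -0.82 (adjusted p = 1.0e-11).

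Of the 3 doses of Menthae Herba only the high dose passed against vehicle, and the high dose was not tested against the medium dose. NOX1 averaged 14.9 ± 0.43 CPM in vehicle, 15.4 ± 0.49 CPM at the low dose, 13.7 ± 1.4 CPM at the medium dose and 8.43 ± 0.23 CPM at the high dose (SD, n = 3 each). The low dose (log2 0.05 ± 0.08, adjusted p = 0.85) and the medium dose (-0.13 ± 0.08, adjusted p = 0.47, edgeR) did not pass against vehicle, and the 95% interval of the medium-dose difference ran from -0.29 to 0.03. At the medium dose replicate 1 had 15.3 CPM while replicates 2 and 3 had 13.0 and 12.8 CPM, both below every vehicle library. The high dose was lower than the low dose by a log2 difference of -0.87 ± 0.08 (adjusted p = 1.2e-10, edgeR), where 2.36% of all genes were called.

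The same direction with dose was seen in all 6 replicated extracts, but in the other 5 it did not pass. NOX1's log2 difference of high from low dose ran from -0.18 for Saposhnikoviae Radix to -0.28 for Soyo-san in those 5, with adjusted p of 0.25 or more and unadjusted p of 0.0015 (Soyo-san) to 0.023. Saposhnikoviae Radix averaged 15.0 ± 0.23 CPM at the high dose against 16.9 ± 0.37 CPM at the low dose, and Saengmaek-san 14.1 ± 0.12 against 16.4 ± 0.43 CPM (SD, n = 3 each). In those 5 comparisons 0.00587% (Okbyeongpung-san) to 0.352% (Guibi-tang) of all genes were called. In 4 of the 6 extracts the 3 high-dose libraries lay apart from the 3 low-dose ones. How often this holds over all genes was not counted, so it is a description of the values only. Among the other tested members the high dose was also lower in 5 of 6 extracts for NOXO1. It was lower in 4 for NOXA1 and DUOX1 and in 3 for CYBA and DUOX2. Libraries lay apart in 3 extracts for NOXO1, 2 for NOXA1, 1 for DUOX2 and 0 for DUOX1 and CYBA. Set against vehicle, NOX1 had a positive log2 difference at all 6 low doses, from 0.05 to 0.22, and none of them passed. The largest of these, Okbyeongpung-san at the low dose (17.6, 17.6 and 16.9 CPM, against 14.4, 15.1 and 15.1 CPM in vehicle), had a log2 difference of 0.22 ± 0.08 (adjusted p = 0.065). With the order term it was 0.32 and passed (adjusted p = 0.024). These comparisons share the vehicle libraries.

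Soyo-san, the formula that contains Menthae Herba, was uneven in NOX1 at the high dose. Its libraries had 11.7, 13.0 and 16.4 CPM, so that replicates 1 and 2 lay below and replicate 3 above every vehicle library. The log2 difference from vehicle was -0.13 ± 0.08 (adjusted p = 0.31). Without replicate 3 it was -0.27 (adjusted p = 0.023), and the difference of high from low dose, -0.28 with all libraries (adjusted p = 0.25), was -0.42 without it (adjusted p = 0.0056). Replicate 3 decided both calls.

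**Figure D2:**
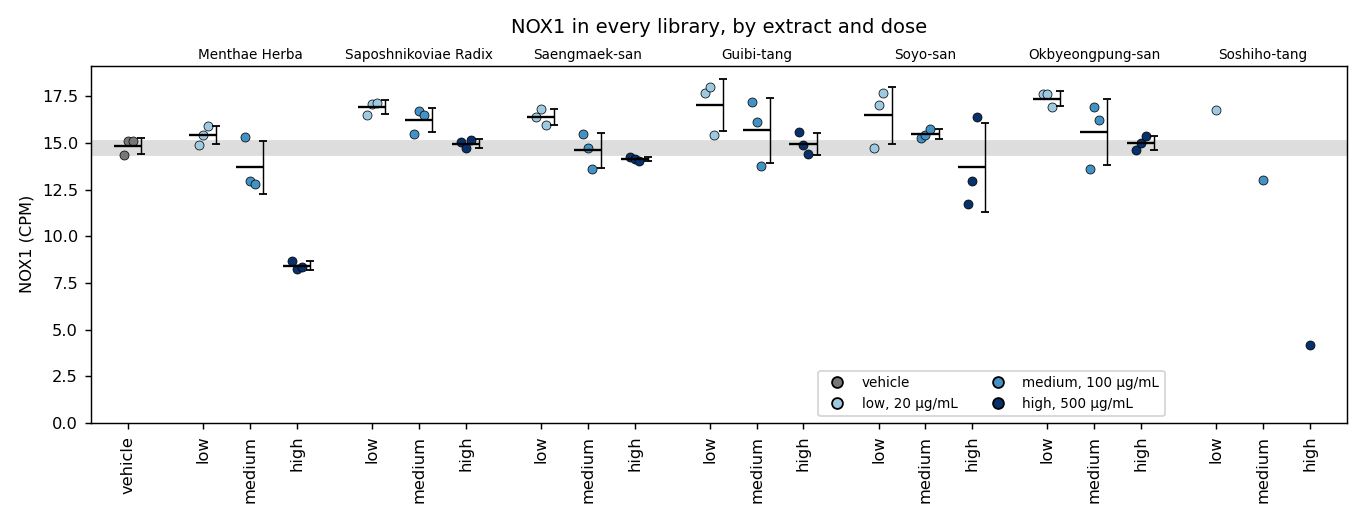
NOX1 CPM in every library by extract and dose, vehicle at the left, with the group mean and SD where there are 3 libraries and the vehicle range as a grey band. Menthae Herba at the high dose (8.26 to 8.69 CPM) and the single Soshiho-tang high-dose library (4.17 CPM) stand below all others.

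Between extracts at the high dose, NOX1 was lower under Menthae Herba than under each of the other 5 replicated extracts. The log2 differences were -0.83 ± 0.08 from Saposhnikoviae Radix (1.1% of all genes called), -0.75 ± 0.08 from Saengmaek-san (1.64%), -0.83 ± 0.08 from Guibi-tang (1.44%), -0.69 ± 0.09 from Soyo-san (8.62%) and -0.83 ± 0.09 from Okbyeongpung-san (11.8%). All 5 adjusted p-values were 1.3e-07 or less (edgeR). Among the remaining pairs of extracts NOX1 was not called, and its log2 differences lay between -0.14 and 0.14. Of 90 tests of members between extracts 9 were called, 5 of them NOX1, 2 NOXO1 and 2 DUOX2, against 2.67% of all genes over the 15 pairs. The 2 DUOX2 calls are counted here but not read as results, as libraries of the compared extracts kept that gene in the test.

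In order of the 19 group means NOX1 began with Menthae Herba high dose (8.43 CPM) and ended with Okbyeongpung-san low dose (17.4 CPM). Above the lowest group, each group's libraries overlapped those of the next in that order. Vehicle was the 6th from the bottom, and the 6 low-dose groups were all above it.

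Soshiho-tang, with 1 library per dose, allowed no test. NOX1 had 16.8 CPM at the low dose (95% exact binomial interval 15.0 to 18.7 CPM), 13.0 CPM at the medium dose (11.7 to 14.4) and 4.17 CPM at the high dose (3.37 to 5.11), beside 14.4 to 15.1 CPM in vehicle. These intervals cover counting error only. The high-dose library held 94 NOX1 counts and was the lowest of all 60 libraries, at 0.281 of the vehicle mean. In that library 5.23% of all tested genes differed from vehicle by over 2-fold, and 0.651% had a log2 ratio to vehicle as low as that of NOX1 or lower. Its CYBA was 177 CPM (171 to 183 CPM), also below the vehicle libraries (196 to 219 CPM), while NOXO1 (11.6 CPM) and DUOX1 (2.12 CPM) lay within the vehicle range. NOXA1 (0.444 CPM, 10 counts) and DUOXA1 (0.133 CPM, 3 counts) also lay below that range. DUOX2 (0.222 CPM, 5 counts) and DUOXA2 (0.044 CPM, 1 count) lay above it. At the low dose, where NOX1 lay above the vehicle range, CYBA was below it as well (194.5 CPM, 188 to 201 CPM).

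The genes whose group means were most like those of NOX1 were CLEC3A, TMPRSS2, CHST3, GABRP and KANK1. Over the 19 groups, among 10600 genes of at least 5 CPM, Pearson's r of log2 CPM with NOX1 was 0.965 for CLEC3A, a secreted C-type lectin, and 0.945 for TMPRSS2, a membrane serine protease. It was 0.936 for CHST3, a carbohydrate sulfotransferase, 0.936 for GABRP, a GABA receptor subunit, and 0.931 for KANK1. All of these means share libraries and scaling, and the lowest group weighs most. CLEC3A averaged 55.2 CPM under Menthae Herba at the high dose and 75.1 CPM in vehicle, and CHST3 9.82 CPM and 14.9 CPM.

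NOXO1, the organizer, rose under Soyo-san at all 3 doses and under Okbyeongpung-san at the low dose. Okbyeongpung-san low-dose libraries had 17.7, 19.6 and 18.02 CPM, against 14.7, 10.9 and 12.4 CPM in vehicle, which lay wholly lower. The log2 change was 0.54 ± 0.10 (adjusted p = 2.4e-04, edgeR), where 8.79% of all genes were called. Okbyeongpung-san averaged 18.4 ± 0.99 CPM at the low, 15.5 ± 0.52 CPM at the medium and 14.6 ± 0.47 CPM at the high dose (SD, n = 3 each). Its medium and high doses were not called against vehicle, nor its high against its low dose. NOXO1 averaged 12.7 ± 1.9 CPM in vehicle and, under Soyo-san, 16.0 ± 0.92 CPM at the low, 16.2 ± 2.4 CPM at the medium and 15.7 ± 1.1 CPM at the high dose (SD, n = 3 each). The log2 changes were 0.34 ± 0.10 (low, adjusted p = 0.035, 3.93% of all genes called), 0.35 ± 0.10 (medium, 0.017, 9.87%) and 0.31 ± 0.10 (high, 0.031, 14.5%). No dose trend is seen in the Soyo-san means, and the vehicle library with 14.7 CPM overlapped the Soyo-san medium- and high-dose libraries.

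All 4 of these groups are later-numbered, while vehicle is earlier-numbered. NOXO1 had a median of 15.2 CPM in the 29 later-numbered libraries against 12.4 CPM in the 31 earlier-numbered ones. Within Saengmaek-san, whose libraries fall in both parts, the later-numbered 3 had 13.1 to 13.5 CPM and the earlier-numbered 6 had 10.4 to 14.4 CPM. Within Guibi-tang the later-numbered 5 had 13.6 to 17.5 CPM and the earlier-numbered 4 had 12.4 to 15.0 CPM. The order term itself, later minus earlier, was 0.10 ± 0.06 on the log2 scale and did not pass (adjusted p = 0.24). With the order term the Okbyeongpung-san low-dose change was 0.45 and passed (adjusted p = 0.013). The Soyo-san changes were then 0.25 (low), 0.26 (medium) and 0.21 (high) and did not pass (adjusted p of 0.22, 0.23 and 0.29). They also did not pass without vehicle replicate 2, the lowest vehicle library, where they were 0.24, 0.25 and 0.20 (adjusted p of 0.22, 0.14 and 0.23). Without vehicle replicate 3 they were 0.33, 0.34 and 0.29 (adjusted p of 0.12, 0.062 and 0.087). Leaving out single Soyo-san libraries also ended the calls (replicate 1 or 2 at the low and medium dose, replicate 2 or 3 at the high dose), with adjusted p between 0.092 and 0.18.

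NOXO1 counts also carry a limit of place. NOXO1 lies at chr16:1978917-1984192 on the minus strand, and 98.8% of its exon length overlaps exons of TBL3 on the other strand. No source used here states whether counting used strand, so reads of the 2 genes may not be fully parted. NOXO1 and TBL3 were correlated weakly over libraries, with r of 0.34 among the 31 earlier-numbered and 0.26 among the 29 later-numbered ones, a description of libraries that share groups and scaling. TBL3 itself was called in 3 of the 4 comparisons with vehicle in which NOXO1 rose, in the same direction: Okbyeongpung-san at the low dose (0.19 ± 0.05, adjusted p = 0.012) and Soyo-san at the medium (0.16 ± 0.05, 0.04) and high dose (0.15 ± 0.05, 0.039). For Soyo-san at the low dose it was 0.13 ± 0.05 (adjusted p = 0.12, edgeR). The part of TBL3 reads in the NOXO1 values was not tested. Between the parts TBL3 had medians of 73.9 CPM in later-numbered and 71.1 CPM in earlier-numbered libraries.

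Between extracts at the high dose NOXO1 was lower under Menthae Herba (11.5 ± 0.47 CPM) than under Soyo-san (15.7 ± 1.1 CPM) and Okbyeongpung-san (14.6 ± 0.47 CPM; SD, n = 3 each). The log2 differences were -0.44 ± 0.10 (adjusted p = 0.0031) and -0.34 ± 0.10 (adjusted p = 0.022, edgeR). Both pairs set earlier-numbered against later-numbered libraries, and with the order term they were -0.35 (adjusted p = 0.13) and -0.24 (adjusted p = 0.35). The difference from Okbyeongpung-san also did not pass without Menthae Herba replicate 1 (-0.35, adjusted p = 0.052) or 2 (-0.31, 0.11), or without Okbyeongpung-san replicate 1 (-0.36, 0.057) or 2 (-0.31, 0.11). Against vehicle, NOXO1 under Menthae Herba at the high dose gave a log2 difference of -0.14 ± 0.10 (adjusted p = 0.45), with libraries of 11.6, 10.97 and 11.9 CPM inside the vehicle range.

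**Figure D3:**
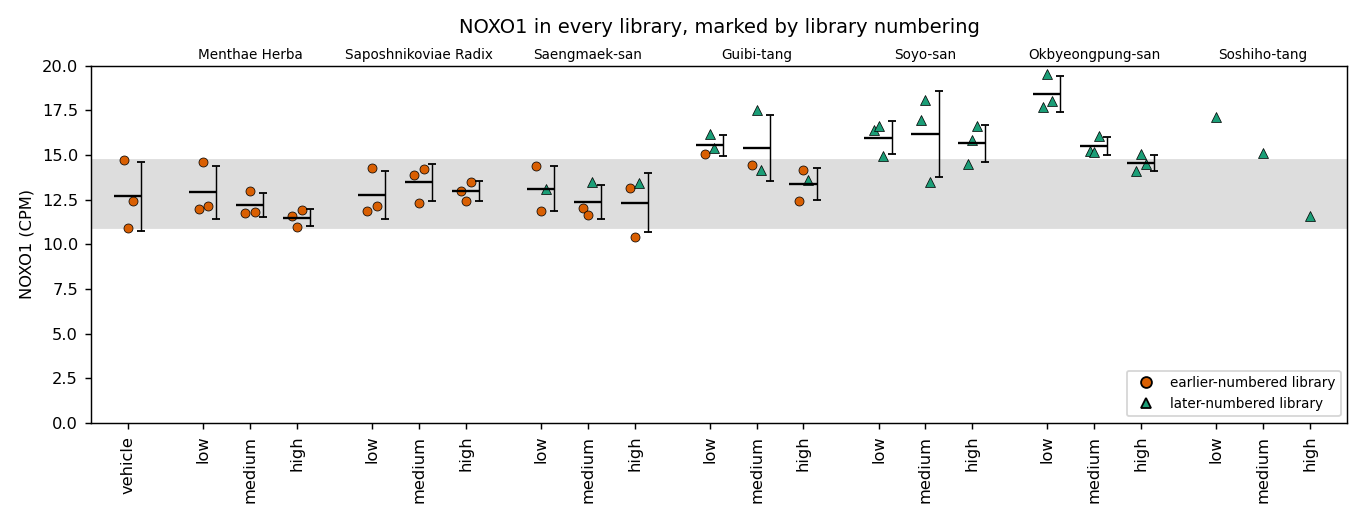
NOXO1 CPM in every library by extract and dose, with earlier-numbered libraries as circles and later-numbered ones as triangles, group mean and SD where there are 3 libraries, and the vehicle range as a grey band. The Okbyeongpung-san low-dose libraries (17.7 to 19.6 CPM) and most Soyo-san libraries lie above the band, and all of them are later-numbered.

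CYBA, the partner of NOX1 that other NADPH oxidases also use, hardly varied. Its 19 group means ran from 193 to 214 CPM, and none of the 18 comparisons with vehicle passed (log2 differences between -0.12 and 0.03, smallest adjusted p 0.22). Under Menthae Herba at the high dose CYBA averaged 207 ± 8.5 CPM against 210 ± 11.7 CPM in vehicle (SD, n = 3 each). CYBA lies at chr16:88643283-88651152 on the minus strand.

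NOXA1, the activator (chr9:137423350-137434406, plus strand), had 5 to 33 counts per library and no call. Its 19 group means ran from 0.511 to 0.938 CPM. All 6 low doses had a positive log2 difference from vehicle, 0.08 to 0.64, and the smallest adjusted p among them was 0.2. Soyo-san at the low dose, the highest group, had 0.995, 1.03 and 0.789 CPM, against 0.638, 0.654 and 0.519 CPM in vehicle, and these groups did not overlap. The log2 difference of 0.64 did not pass (adjusted p = 0.2, edgeR).

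DUOX1 (chr15:45129933-45165576, plus strand) was the higher of the dual oxidases per kilobase in all 57 libraries and was called nowhere. Under Menthae Herba at the high dose its libraries had 1.57, 1.32 and 1.92 CPM, against 2.49, 1.84 and 2.15 CPM in vehicle, and the groups overlapped. The log2 difference was -0.42 ± 0.16 (adjusted p = 0.098), and without Menthae Herba replicate 3 it was -0.58 (adjusted p = 0.049). All 6 high doses lay below vehicle, with log2 differences from -0.42 to -0.06, and so did all 6 low doses, in comparisons that share the vehicle libraries. The genes most like DUOX1 over the 19 group means were FAM193B (r = 0.756), FAM86DP (0.707), PHF12 (0.668), BMP1 (0.665) and WNT10A (0.663), a weaker likeness than that found for NOX1.

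DUOX2 had the widest relative range among the 6 tested members, with group means from 0.0593 CPM under Menthae Herba at the medium dose to 0.376 CPM under Guibi-tang at the high dose. The Guibi-tang high-dose libraries had 0.473, 0.425 and 0.229 CPM, or 13, 18 and 5 counts. Vehicle libraries had 0.0682, 0.0785 and 0.214 CPM, or 2, 3 and 7 counts, all below the Guibi-tang ones. The log2 difference was 1.65 ± 0.48, a ratio of 3.14 (adjusted p = 0.0504, edgeR), in a comparison where 2.26% of all genes were called. Guibi-tang libraries themselves kept the gene in the test, so its p-values against vehicle are given here but not read as results. The difference was 2.32 (adjusted p = 0.032) without vehicle replicate 3, 1.85 (0.047) without Guibi-tang replicate 3 and 1.64 (0.044) with the order term. With no filter on low counts, where DUOX2 enters whatever its level, it was 1.64 (adjusted p = 0.12). At the medium dose of Guibi-tang the libraries had 0.176, 0.447 and 0.5 CPM and the log2 difference was 1.61 ± 0.50 (adjusted p = 0.092). Without replicate 1 it was 1.94 (adjusted p = 0.024).

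Soyo-san and Okbyeongpung-san gave DUOX2 means above vehicle at every dose without passing. Their log2 differences ran from 0.41 (Okbyeongpung-san, low dose) to 1.27 (Okbyeongpung-san, high dose), with adjusted p of 0.12 or more. Menthae Herba at the high dose had 0.172, 0.029 and 0.0323 CPM, or 6, 1 and 1 counts, with a log2 difference from vehicle of -0.59 ± 0.62 (adjusted p = 0.65). Set against other extracts at the high dose, DUOX2 under Menthae Herba gave a log2 difference of -2.24 ± 0.51 from Guibi-tang (adjusted p = 0.0077) and of -1.86 ± 0.56 from Okbyeongpung-san (adjusted p = 0.024, edgeR). Libraries of both of these extracts kept the gene in the test. With no filter the differences were -2.22 (adjusted p = 0.02) and -1.84 (0.059). Okbyeongpung-san had 0.425, 0.203 and 0.252 CPM.

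Both differences also changed with single libraries. The Guibi-tang difference was -1.86 (adjusted p = 0.11) without Menthae Herba replicate 2 and -1.89 (0.095) without replicate 3. Without Guibi-tang replicate 1 it was -2.08 (0.051) and without replicate 2 it was -2.14 (0.055). The Okbyeongpung-san difference was -1.48 (adjusted p = 0.15) without Menthae Herba replicate 2, -1.51 (0.1) without replicate 3 and -1.48 (0.18) without Okbyeongpung-san replicate 1. With the order term the Guibi-tang difference was -2.23 (adjusted p = 0.009) and the Okbyeongpung-san one -1.81 (0.15). DUOX1 and DUOX2 also share 271 exact stretches of 100 bases, 2.9% of those of DUOX1 and 2.56% of those of DUOX2, so a small part of their reads may be divided between them by the counting.

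**Figure D4:**
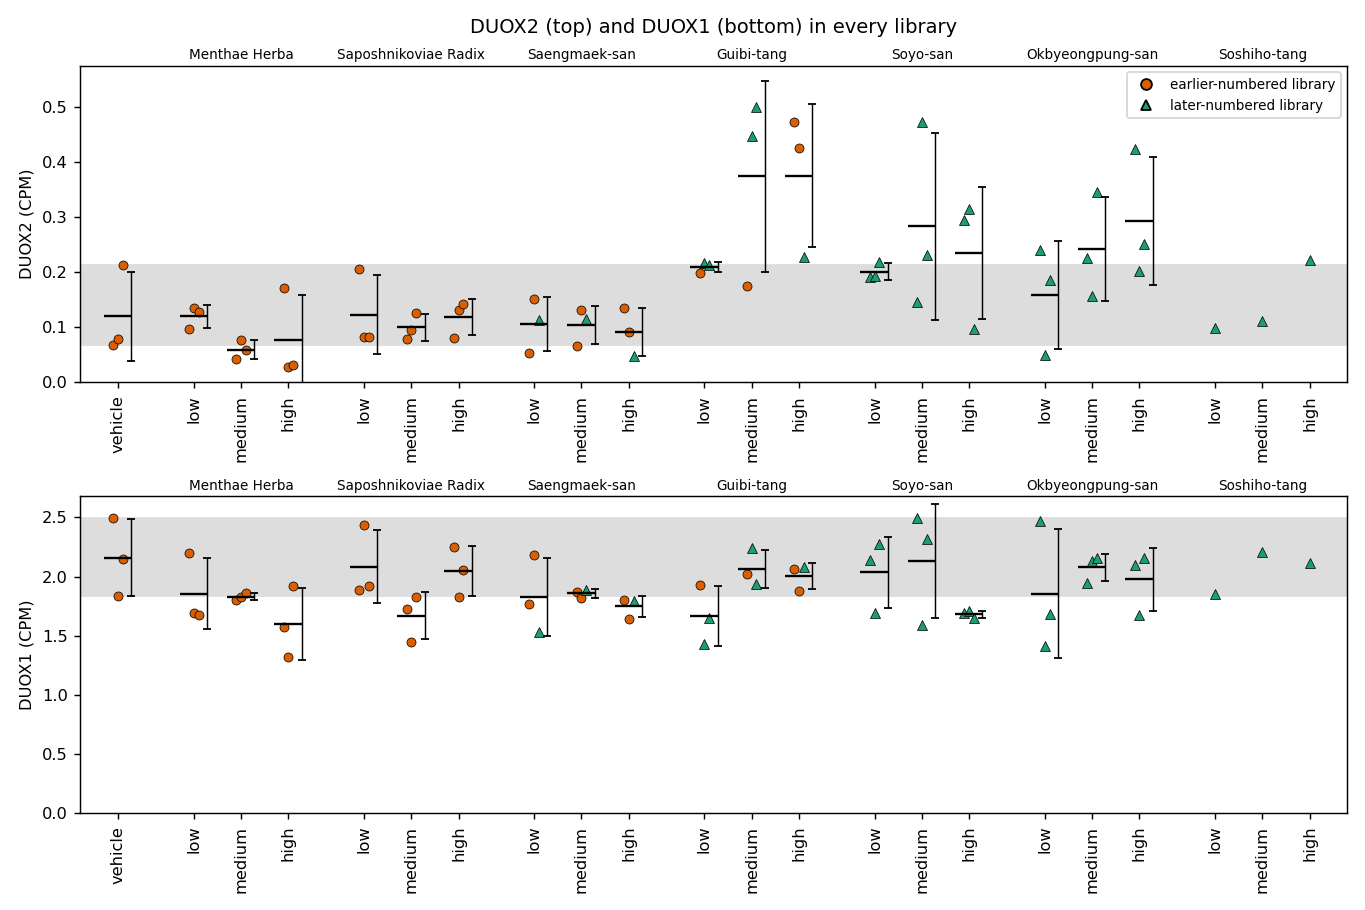
CPM of DUOX2 (top) and DUOX1 (bottom) in every library by extract and dose, with earlier-numbered libraries as circles and later-numbered ones as triangles, group mean and SD where there are 3 libraries (cut at 0), and the vehicle range as a grey band. For DUOX2 the Guibi-tang medium- and high-dose libraries reach 0.5 CPM, while Menthae Herba, Saposhnikoviae Radix and Saengmaek-san libraries stay at or below the vehicle range's top of 0.214 CPM.

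The maturation factors were too low to test. DUOXA1 (chr15:45117367-45129938, minus strand) had group means from 0.0702 to 0.3 CPM, with 0.227, 0.232 and 0.244 CPM under Menthae Herba at the high dose against 0.201, 0.366 and 0.153 CPM in vehicle. DUOXA2 was at 0 in all 3 vehicle libraries. The 3 Guibi-tang high-dose libraries held 2, 2 and 1 counts of it, and that extract and dose was 1 of 2 groups with a count in every library, the other being Okbyeongpung-san at the medium dose with 2, 1 and 1 counts. DUOXA1 and DUOXA2 overlap on opposite strands by 706 bases of exon, 18.97% of DUOXA1 and 27.6% of DUOXA2, so their few counts may not be fully parted.

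Of the members' tests against vehicle at the high dose 2 of 36 were called, where the share of all genes called was 8.57% for Menthae Herba, 0.499% for Saposhnikoviae Radix, 4.28% for Saengmaek-san, 2.26% for Guibi-tang, 14.5% for Soyo-san and 7.4% for Okbyeongpung-san. At the medium dose 1 of 36 was called, against 2.65% of all genes over its 6 comparisons, and at the low dose 2 of 36, against 2.31%. Between the high and the low dose 1 of 36 was called, against 0.483% of all genes.

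**Figure D5:**
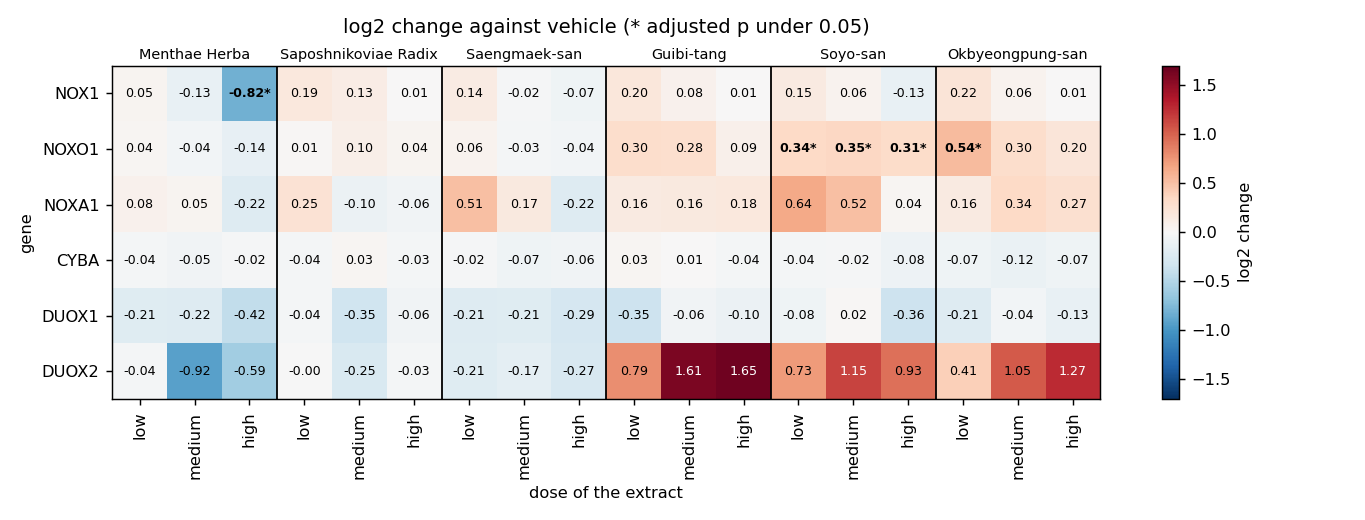
Log2 change against vehicle (colour and number) of the 6 tested members for 6 extracts at 3 doses, with an asterisk where the adjusted p was under 0.05. NOX1 is called under Menthae Herba at the high dose (-0.82), and NOXO1 under Soyo-san (0.31 to 0.35) and Okbyeongpung-san at the low dose (0.54). DUOX2 has its highest values under Guibi-tang (1.65 and 1.61) without an asterisk.

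Genes around the oxidases were read from written lists. Of 11 other NADPH oxidases and subunits (among them CYBB, NOX4 and the Rac GTPases) 6 were tested, and none was called in any extract at the high dose against vehicle. At the high dose of Menthae Herba their median log2 change was -0.14, against -0.004 for all genes. CYBC1, a chaperone of the oxidase heterodimer, rose under Okbyeongpung-san at the low dose to 44.5 ± 3.3 CPM, against 37.7 ± 0.64 CPM in vehicle (0.24 ± 0.05, adjusted p = 0.0031, edgeR). It was the only call of this list against vehicle, in a comparison where 8.79% of all genes were called. Another list, on NADPH supply, held 12 genes, of which some, such as TKT and TALDO1, do not make NADPH themselves. Of these 12 genes, 3 rose under Menthae Herba at the high dose and none fell, with a median of 0.095, where 8.57% of all genes were called. ME1, the cytosolic malic enzyme, averaged 119 ± 2.9 CPM under Menthae Herba and 82.8 ± 2.8 CPM in vehicle (log2 0.53 ± 0.05, adjusted p = 7.4e-12). TKT, a transketolase, averaged 637 ± 6.0 CPM under Menthae Herba and 533 ± 21.7 CPM in vehicle (0.26 ± 0.06, adjusted p = 0.0031, edgeR; SD, n = 3 each). In the other extracts at the high dose none of the 12 fell, and 1 rose under Saposhnikoviae Radix (0.499% of all genes called), 1 under Saengmaek-san (4.28%), 2 under Guibi-tang (2.26%), 5 under Soyo-san (14.5%) and 2 under Okbyeongpung-san (7.4%).

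Of 15 genes that remove superoxide and peroxide 4 rose and 2 fell under Menthae Herba at the high dose, with a median log2 change of 0.01, beside the same 8.57% of all genes. GPX1, a glutathione peroxidase, fell to 102 ± 4.5 CPM, against 124 ± 2.6 CPM in vehicle (log2 -0.28 ± 0.06, adjusted p = 0.0022). CAT, catalase, fell to 78.2 ± 1.1 CPM, against 87.2 ± 0.82 CPM in vehicle (-0.16 ± 0.04, 0.0054). SOD1, the cytosolic superoxide dismutase, averaged 88.7 ± 3.6 and 77.4 ± 1.9 CPM (0.20 ± 0.06, 0.017), and GPX2, the gastrointestinal glutathione peroxidase, 734 ± 15.8 and 654 ± 12.7 CPM (0.17 ± 0.05, 0.021). CAT also fell (-0.14 ± 0.04, 0.033) and SOD1 rose (0.21 ± 0.06, 0.027) under Guibi-tang at the high dose. There 2 of this list rose and 1 fell, where 2.26% of all genes were called. Under Soyo-san 2 rose and 2 fell (14.5%), and under Okbyeongpung-san 1 and 1 (7.4%). None was called under Saposhnikoviae Radix or Saengmaek-san at that dose. Of 15 factors known to act on NOX1 or DUOX2 transcription 13 were tested, none rose and 2 fell under Menthae Herba at the high dose, with a median of -0.03, again beside 8.57% of all genes. HNF4A averaged 85.4 ± 2.3 CPM under Menthae Herba and 94.4 ± 3.9 CPM in vehicle (-0.14 ± 0.04, adjusted p = 0.018), and CDX2, an intestinal homeobox factor, 3.23 ± 0.27 and 4.24 ± 0.33 CPM (-0.40 ± 0.12, 0.034; SD, n = 3 each). HNF4A also fell at the high dose of Saengmaek-san (-0.15 ± 0.04, adjusted p = 0.024) and Guibi-tang (-0.15 ± 0.04, 0.039, edgeR), where NOX1 was not called. Of the 13 factors 0 rose and 2 fell under Saengmaek-san at that dose (4.28% of all genes called). The counts were 1 and 2 under Guibi-tang (2.26%), 2 and 3 under Soyo-san (14.5%) and 2 and 2 under Okbyeongpung-san (7.4%). None was called under Saposhnikoviae Radix.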

How the data were processed

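Transcripts of HT29 cells were counted in 60 RNA-seq libraries. An MGIEasy directional kit and an MGIseq instrument were used, per the labels' protocols. The deposited values are expected counts per gene from RSEM 1.3.3. The submitters' processing notes also name STAR 2.7.3a, Trim Galore 0.6.5, FastQC 0.11.9 and GRCh38. Which annotation was used, and whether counting used strand, is not given in the sources here. Expected counts divide reads that match several genes, and 27.7% of the values above 0 were not whole, so they were rounded. Ethanol extracts and wortmannin, named in the design text, were not analysed here.

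Labels gave the groups and replicate numbers. All 57 libraries of the 19 replicated groups entered 1 fit with edgeR 4.0.16 (R 4.3.3): filterByExpr (17049 genes, 99.95% of counts), TMM scaling, the robust quasi-likelihood test without a block, and Benjamini-Hochberg adjustment over all genes of each of 39 comparisons (18 with vehicle, 6 of high against low dose, 15 between extracts at the high dose) and of the joint test. CPM values use TMM-scaled sizes over the tested genes. Standard errors come from the change and its test statistic. No label says whether replicates were separate cultures, so the p-values rest on the spread among these libraries and that spread may be technical. All 57 pairs of replicates differed beyond counting noise (chi-square per degree of freedom 1.9 to 26.1). Soshiho-tang libraries have intervals only.

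All 8 members are described, with at most 4 called genes of a list by smallest p (some are not reported here), and 5 genes most like NOX1 and DUOX1 by Pearson's r of log2 CPM (prior count 2) over group means. Members and lists were chosen with earlier results of these data known. Alternatives were DESeq2 1.42.0's size factors and test, no filter, a replicate block, a fit to the compared groups only, an order term and leaving out each library. The earlier-numbered libraries alone and the joint test of 18 groups were chosen after seeing the data. Replicate numbers did not mark shared batches in the labels, and same-numbered deviations correlated above 0.1 in all 3 pairs in 1 of 39 comparisons, that of the high doses of Saengmaek-san and Guibi-tang (0.144, 0.129 and 0.287).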

Additional observations from a re-analysis of the deposited data

Results flagged for a closer look

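Differences between extracts at the high dose passed edgeR's quasi-likelihood test for NOX1 and NOXO1, each under Menthae Herba set against another extract. For NOX1 the log2 differences were -0.83 from Saposhnikoviae Radix, -0.75 from Saengmaek-san, -0.83 from Guibi-tang, -0.69 from Soyo-san and -0.83 from Okbyeongpung-san. NOX1 was lower in 3 of 3 Menthae Herba libraries than in all high-dose libraries of each of these extracts. For NOXO1 they were -0.44 from Soyo-san and -0.34 from Okbyeongpung-san. DUOX2 gave -2.24 from Guibi-tang and -1.86 from Okbyeongpung-san, but it was kept for testing only through libraries of Guibi-tang, Okbyeongpung-san and Soyo-san, so these p-values are not read as results. With the order term the adjusted p was 0.009 from Guibi-tang and 0.15 from Okbyeongpung-san. The comparison with Saposhnikoviae Radix lies within the earlier-numbered libraries. Both NOXO1 differences cross the parts of the numbering and were not called with the order term. Groups of 3 libraries are too small for a test of single outlying libraries.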

How the results depend on the processing

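NOX1's fall under Menthae Herba at the high dose kept its direction and passed in every alternative run, with log2 changes of -0.82 with DESeq2's size factors and its own test, with the order term and with the groups compared alone, -0.81 with no filter, and -0.84 to -0.80 on leaving out single libraries. With a replicate block it was -0.82. Counts of member calls were the same as without the block: 2, 1 and 2 against vehicle at the high, medium and low dose. They were 1 between doses, 9 between extracts and 3 in the joint test. Equal counts do not show that the same tests were called. The counts between extracts and in the joint test include DUOX2, whose p-values there are not read as results. The medium-dose count of 1 against vehicle was 3 with no filter on low counts, 0 with the order term and 0 with the groups compared alone, and the count of 1 between high and low dose was 2 with no filter. With the order term the high-dose count stayed at 2 through a swap (NOXO1 under Soyo-san was lost and DUOX2 under Guibi-tang gained). That DUOX2 call is not read as a result. The low-dose count also stayed at 2 through a swap (NOXO1 under Soyo-san was lost and NOX1 under Okbyeongpung-san gained). The count between extracts was 6 with the order term. Leaving out single libraries gave 1 to 3 calls at the high, 0 to 2 at the medium and 1 to 2 at the low dose, 1 to 2 between doses, 6 to 11 between extracts, and 3 to 3 in the joint test. The medium-dose count was 0 without vehicle replicate 2 or 3 or Soyo-san replicate 1, and 2 without vehicle replicate 1, Guibi-tang replicate 1, or Okbyeongpung-san replicate 1 or 2. The high-dose count was 1 without vehicle replicate 2 or Soyo-san replicate 2, the low-dose count 1 without vehicle replicate 2 or 3 or Soyo-san replicate 1 or 2, and the count between doses 2 without Soyo-san high-dose replicate 3. CYBA in the Soshiho-tang high-dose library was 169 CPM with unscaled library totals. Values of single genes under these alternatives were tallied for the called results, other than NOX1's fall against vehicle, and for some uncalled ones that were picked. Of these values 193 kept their side of the threshold, 31 lost the call, 9 gained it and none reversed. Most results of single genes were not in this tally. The cause was not tested. DUOX2, DUOXA1 and DUOXA2 are limited by depth, at 18 counts or fewer in a library.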
